A study of Mus musculus with 4 samples.

Results

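Bdnf, Sst and Chrna6 are 3 of the 27514 genes listed under the same Ensembl identifier in all 4 libraries. They were selected on the contrast that opens this account: a higher level in the progenitors of the E9.5 conditional knockout than in those of its control. A progenitor was any cell with 3 or more raw UMIs (unique molecular identifiers, each standing for 1 captured transcript) of Arg1, a leading gene of the multilineage progenitors of the cardiopharyngeal mesoderm. All 3 genes passed the filter of 20 UMIs over both progenitor sums at E9.5, and none passed it at E8.5.

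Droplet single-cell RNA-seq was run on Swiss Webster mouse embryos in 4 groups with 1 library each. Controls (Ctrl, Tbx1Cre/+;Rosa26-GFPflox/+) and conditional knockouts (cKO, Tbx1Cre/flox;Rosa26-GFPflox/+) were each taken at E8.5 (upper part of the body) and at E9.5 (pharyngeal apparatus and heart, with the back). Cre sat in the Tbx1 locus and inactivates that copy, so the controls kept 1 working copy and both genotypes carried Cre and the GFP reporter. Tissue of several embryos was pooled, and GFP-positive, DAPI-negative cells were sorted, so that Tbx1-lineage epithelium, endothelium and mesoderm all entered the libraries.

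BDNF is a neurotrophin, a secreted growth factor that acts through the TrkB receptor, encoded by Ntrk2, and keeps sensory neurons of the cranial and spinal ganglia alive. Sst encodes somatostatin, a peptide hormone cut from a longer precursor and released by interneurons, the hypothalamus and endocrine cells of the gut and pancreas, where it restrains secretion. Chrna6 encodes the alpha 6 subunit of nicotinic acetylcholine receptors, ligand-gated cation channels best known from dopaminergic neurons. None of these genes is a usual marker of pharyngeal mesoderm, the tissue that yields the muscles of the jaw and face, second heart field and connective tissue.

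On build GRCm38.p6, Bdnf (ENSMUSG00000048482) spans chromosome 2 from 109674700 to 109727043. Sst (ENSMUSG00000004366) spans chromosome 16 from 23889573 to 23891342, and Chrna6 (ENSMUSG00000031491) spans chromosome 8 from 27403212 to 27413944. RefSeq start site windows on that build, each from 250 bases before to 50 bases after a start, were held for 2 of the 3 genes: 7 windows for Bdnf and 1 for Sst. Since the deleted gene encodes a T-box factor, the windows were searched on both strands for the T-box core AGGTGT and for the cyclic AMP response element TGACGTCA, which is well known in the Sst promoter. The Sst window, chr16:23890795-23891094 on the minus strand, held 1 response element and no T-box core, and 1 of the 7 Bdnf windows, chr2:109709133-109709432 on the plus strand, held 1 T-box core on its opposite strand. These are the windows shown, 5′ to 3′, with the matches in capitals.
Sst, response element in capitals: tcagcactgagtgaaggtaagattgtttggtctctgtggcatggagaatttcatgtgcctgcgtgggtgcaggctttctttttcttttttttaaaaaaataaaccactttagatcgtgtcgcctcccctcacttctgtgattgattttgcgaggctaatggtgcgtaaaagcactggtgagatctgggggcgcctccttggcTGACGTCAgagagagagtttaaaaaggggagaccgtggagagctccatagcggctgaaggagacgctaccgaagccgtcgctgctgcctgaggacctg
Bdnf, T-box core in capitals: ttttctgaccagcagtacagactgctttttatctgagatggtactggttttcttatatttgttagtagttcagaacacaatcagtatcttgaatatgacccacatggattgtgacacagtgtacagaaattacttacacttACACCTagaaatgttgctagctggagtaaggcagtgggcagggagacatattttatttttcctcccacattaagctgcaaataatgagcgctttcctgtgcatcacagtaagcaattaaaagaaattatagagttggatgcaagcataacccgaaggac
Of 32817 windows of this length, 1.79% held the response element and 13.7% held the T-box core. A match here is a description of letters and not a measured binding site.

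The libraries held 1434 (Ctrl E8.5), 1090 (cKO E8.5), 5453 (Ctrl E9.5) and 6266 (cKO E9.5) cells, with 25236185 to 104635590 UMIs of shared genes. Progenitors numbered 312, 397, 546 and 1023 in that order, at medians of 17696 to 25695 UMIs per cell, so that depth differed little between the E9.5 libraries (18582 in Ctrl and 17696 in cKO). A level is a gene's UMIs divided by the shared-gene UMIs of its cells, times 1000000 (UPM), with a 95% exact Poisson interval. Unless named otherwise, ratios are log2 of cKO over Ctrl with exact conditional binomial intervals, and shares of cells carry exact Clopper-Pearson intervals. These intervals cover counting error only, and cells of 1 library are not replicates. With 1 library per group no difference could be set against replicate spread, and genotype, library and, for cKO E9.5, a gene table of 31053 rather than 27998 genes cannot be told apart. The 3′ tags counted here need not fall in the deleted part of Tbx1 and so did not check the labels: progenitors of the libraries labelled cKO held 137 UPM at E8.5 and 162 UPM at E9.5 against 83.4 and 129 UPM in Ctrl. E9.5 libraries shared 55 cell barcodes, and the other pairs of libraries 2 to 10. They also held the most cells, and the number that chance would give was not computed.

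At E9.5 the progenitors of the cKO library carried more of each gene, which is the measure that selected them. Bdnf went from 53 UMIs in Ctrl (5.08 UPM, 3.80 to 6.64) to 360 UMIs in cKO (18.6 UPM, 16.7 to 20.6), which gave a log2 ratio of 1.87 (1.45 to 2.32). Sst went from 15 UMIs (1.44 UPM, 0.804 to 2.37) to 193 UMIs (9.96 UPM, 8.60 to 11.5), a log2 ratio of 2.79 (2.03 to 3.66). Chrna6 went from 8 UMIs (0.767 UPM, 0.331 to 1.51) to 122 UMIs (6.30 UPM, 5.23 to 7.52), a log2 ratio of 3.04 (2.01 to 4.28). In each gene the Ctrl interval lay below the cKO interval, on the contrast that selected it. The share of all genes for which this holds was not computed. Among 12307 genes with 20 or more UMIs over both progenitor sums, 3.47% had a log2 ratio of at least 1 and 8.34% one of at most -1. The median log2 ratio over those genes was -0.25, and edgeR TMM factors would add 0.26 to every log2 ratio of progenitors at E9.5. Of the genes past the fold, 29.4% were higher as summed and 50.5% with TMM factors. Nothing is read from the 3 members against this background, because the same contrast chose them.

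At E8.5, a stage the selection did not use, all 3 genes were near the floor in progenitors of both genotypes. Bdnf had 8 UMIs in Ctrl (1.34 UPM, 0.580 to 2.65) and 9 in cKO (0.843 UPM, 0.385 to 1.60), and Chrna6 had 7 (1.18 UPM, 0.472 to 2.42) and 12 (1.12 UPM, 0.581 to 1.96). Their log2 ratios were -0.67 (-2.22 to 0.90) for Bdnf and -0.06 (-1.53 to 1.52) for Chrna6, so no difference was detectable at this depth. Sst had 0 UMIs in 312 Ctrl progenitors, which allows a share of carriers of up to 0.962% on a floor of 3 cells (exact upper end 1.18%), and 1 UMI in cKO, and no ratio is given. Bdnf in progenitors was 3.78-fold higher at E9.5 than at E8.5 in Ctrl and 22.0-fold higher in cKO, with the dissected region differing between stages. Outside the progenitors, Chrna6 was already at 3.79 UPM in Ctrl and 4.78 UPM in cKO at E8.5 (log2 ratio 0.34, -0.15 to 0.83), so that progenitors held 0.310 and 0.235 times the level of other cells. Chrna6 in Ctrl progenitors stayed low, with a log2 ratio of E9.5 over E8.5 of -0.62 (-2.27 to 1.08).

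**Figure D1:**
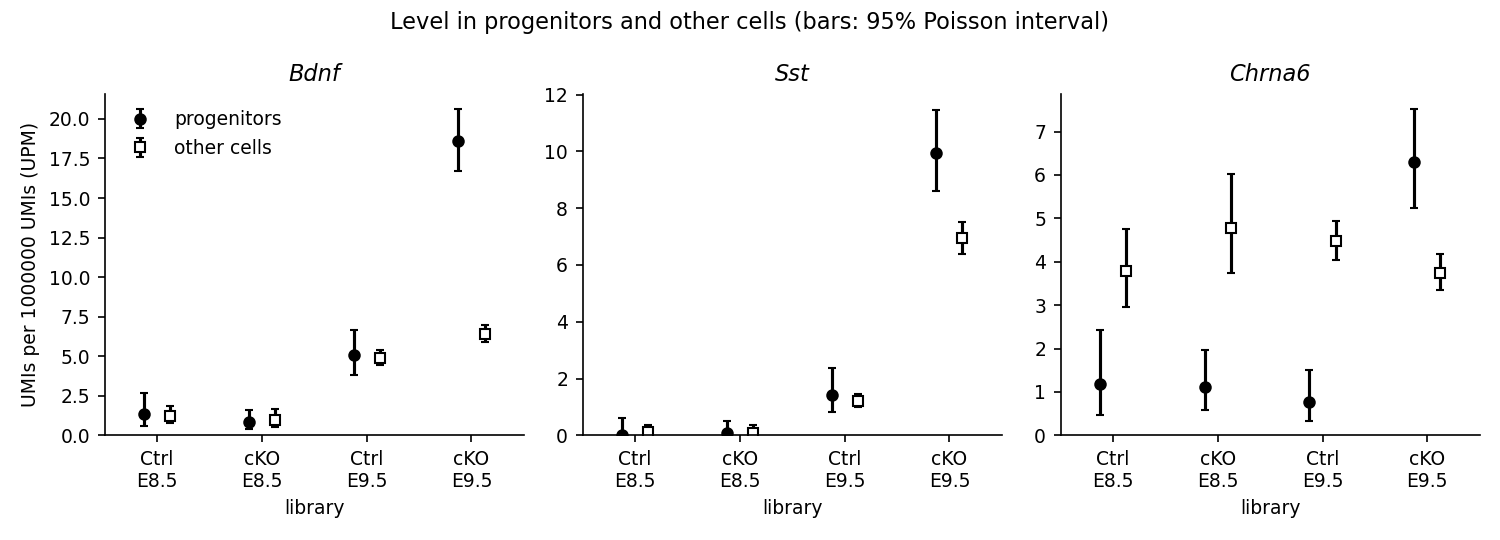
Level (UPM) of Bdnf, Sst and Chrna6 in progenitors (filled circles) and in all other cells (open squares) of each library, with bars for the 95% Poisson interval of counting error. At cKO E9.5 progenitors stand above other cells for all 3 genes, while Chrna6 progenitors lie below other cells in the 3 remaining libraries.

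The 3 genes differed in how the rest of the library behaved. In other cells at E9.5, Bdnf was 4.91 UPM in Ctrl and 6.43 UPM in cKO (log2 ratio 0.39, 0.20 to 0.58). Sst outside progenitors went from 1.20 to 6.94 UPM (log2 ratio 2.53, 2.22 to 2.85), but 1 Ctrl cell held 58 of the 101 Ctrl UMIs. Its carriers outside progenitors went from 14 of 4907 cells (0.285%) to 124 of 5243 (2.37%). Chrna6 in other cells went from 4.47 to 3.74 UPM (log2 ratio -0.26, -0.48 to -0.04), which equals the median of -0.26 over the 14898 genes tested in those cells. Less the ratio in other cells, the progenitor log2 ratio at E9.5 was 1.48 for Bdnf, 0.27 for Sst and 3.30 for Chrna6. The Sst value leans on the Ctrl cell with 58 Sst UMIs and was not recomputed without it. The Sst difference thus extended over cells with and without the Arg1 count, whereas that of Chrna6 was seen in progenitors.

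Carriers are cells with at least 1 UMI of a gene. They were counted from the same UMIs that selected the genes, so a higher share in cKO is not a separate result. Bdnf was in 43 of 546 Ctrl E9.5 progenitors (7.88%, 5.76 to 10.5) and in 201 of 1023 in cKO (19.6%, 17.3 to 22.2). Sst was in 8 (1.47%, 0.635 to 2.87) and in 46 (4.50%, 3.31 to 5.95). Chrna6 was in 8 (1.47%, 0.635 to 2.87) and in 97 (9.48%, 7.76 to 11.4). The genes differed in how many UMIs a carrier held. The highest count in 1 cKO progenitor was 27 for Sst, 10 for Bdnf and 3 for Chrna6, and the 10 cells with most Sst held 69.9% of its progenitor UMIs, against 17.8% for Bdnf and 19.7% for Chrna6. Sst was thus a gene of few cells at high counts, and its Poisson intervals, which treat UMIs as independent, are narrow for a value that rests on 46 cells.

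With every progenitor thinned at random to 10000 UMIs (22 shallower Ctrl E9.5 cells and 39 cKO E9.5 cells left out), the shares stood at 5.53% and 13.1% for Bdnf, 0.382% and 3.46% for Sst, and 0.573% and 5.39% for Chrna6. Endothelial-gate cells, assumed to lack these transcripts, served as the background at the same depth. For Chrna6 that assumption is weak, since at E8.5 the endothelial gate held 2.07 UPM in Ctrl and 3.83 UPM in cKO, against 1.18 and 1.12 UPM in progenitors. None of 395 Ctrl E9.5 and none of 120 cKO E9.5 such cells held Bdnf or Sst, which allows shares of up to 0.759% and 2.50% on a floor of 3 cells (exact upper ends 0.930% and 3.03%). Chrna6 was in 2 of the 395 (0.506%) and 1 of the 120 (0.833%). Of cardiomyocyte-gate cells, 1 of 99 in Ctrl held Sst and 1 of 65 in cKO held Bdnf, with no other member UMI in either set. The Ctrl shares of Sst and Chrna6 could not be told from the endothelial background at this depth, since the intervals overlap. The cKO shares of all 3 genes were above the endothelial values as points, but 120 cells bound those loosely, and only the Bdnf interval (11.1 to 15.4) cleared the upper end of 3.03% for its background. The upper ends for Sst (3.03%) and Chrna6 (4.56%) fell inside their cKO intervals of 2.40 to 4.80% and 4.06 to 6.99%.

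Each level was also read against the Arg1 count of the cell. In cKO E9.5, Bdnf was 7.22 UPM (5.32 to 9.57) in the 388 cells just outside the threshold, with 2 Arg1 UMIs, and 19.7 UPM (15.6 to 24.6) in the 212 cells just inside it, with 3. Chrna6 stood at 4.36 UPM (2.92 to 6.26) and 9.11 UPM (6.38 to 12.6) on the same sides. The Sst level had the opposite step, 25.9 UPM (22.1 to 30.0) outside and 9.62 UPM (6.81 to 13.2) inside, and 11.7 UPM already at 1 Arg1 UMI. Sst carriers were 22 of the 388 cells (5.67%, 3.59 to 8.46) outside and 8 of the 212 (3.77%, 1.64 to 7.30) inside, intervals that overlap. This step thus rested on few cells, with up to 28 UMIs in a cell outside and 27 inside. At 10 or more Arg1 UMIs the levels in cKO were 16.0 UPM for Bdnf, 3.76 UPM for Sst and 3.76 UPM for Chrna6. In Ctrl E9.5, Bdnf stayed between 4.28 and 5.31 UPM in all 7 Arg1 classes. Ctrl Chrna6 was 4.63 UPM without Arg1, 1.36 UPM at 2 UMIs and 0.409 UPM at 3. In Ctrl, cells with 2 or more Arg1 UMIs were thus low in Chrna6, and in cKO they were not. Classes of 3 or more Arg1 UMIs hold the UMIs that selected the genes. Their difference between genotypes, and the steps into them in cKO, are therefore not separate results.

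**Figure D2:**
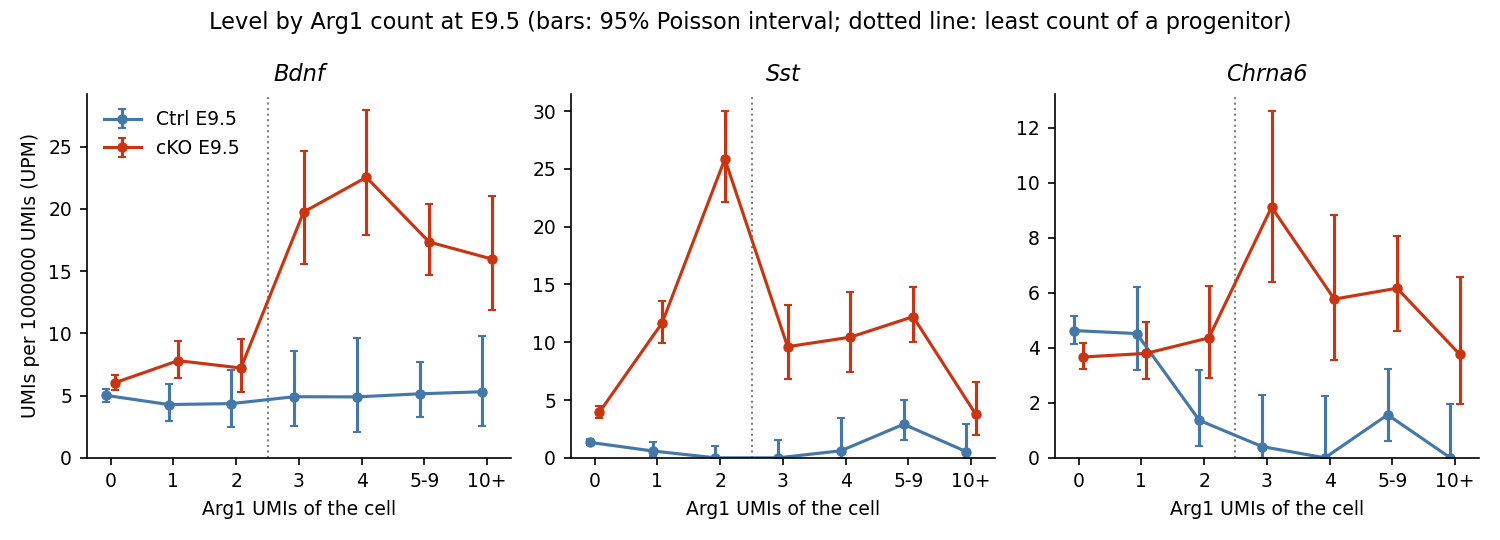
Level (UPM) of each gene at E9.5 by the raw Arg1 UMIs of the cell, Ctrl in blue and cKO in red, with bars for the 95% Poisson interval and a dotted line at the least count of a progenitor. In cKO, Bdnf and Chrna6 step up across the line, and the classes past it hold the UMIs that selected the genes. The Sst level peaks at 2 Arg1 UMIs, outside the line, where 22 of 388 cells carried Sst.

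The Arg1 gate took in cells of several kinds, and their make-up differed between the E9.5 libraries. Counted by the first marker gate each progenitor also passed, 24.0% of Ctrl progenitors but 3.81% of cKO progenitors passed the epithelial gate (Epcam, Cdh1 and Cldn6, adhesion genes of epithelia). Another 35.7% and 10.9% passed the second heart field gate (Isl1, Fgf10 and Nkx2-5). The somitic gate, 3 or more summed UMIs of Meox1 and Tcf15, transcription factors of paraxial mesoderm, took 16.8% of Ctrl and 53.5% of cKO progenitors. It does not ask for both markers, and only 5.49% of all Ctrl and 12.3% of all cKO progenitors held 3 UMIs that included both. The 4 mesenchyme markers (Prrx1, Prrx2, Twist1 and Foxd1) summed to 451 UPM in Ctrl and 579 UPM in cKO progenitors, and 49.1% and 81.5% of all progenitors held 3 UMIs from 2 or more of them. Isl1, a second heart field factor, was 146 UPM in Ctrl and 63.2 UPM in cKO progenitors. These gates cut ranges of marker counts and not cell types, and the part of this shift in the ratios above was not tested.

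Splitting the progenitors by gate divides the same UMIs that selected the genes, so higher cKO levels within a gate are not a separate result. Within the progenitors that also passed the somitic gate, Bdnf was 5.21 UPM in Ctrl (9 UMIs, 2.38 to 9.90) and 22.4 UPM in cKO (234 UMIs, 19.6 to 25.5). Chrna6 there was 2.90 UPM (5 UMIs, 0.941 to 6.76) and 9.95 UPM (104 UMIs, 8.13 to 12.1). Sst had 0 UMIs in 92 Ctrl cells and 116 in cKO (11.1 UPM, 9.17 to 13.3), at least 6.39-fold higher against a floor of 3 UMIs. Those somitic-gate progenitors held 65.0% of the Bdnf, 60.1% of the Sst and 85.2% of the Chrna6 UMIs of all cKO E9.5 progenitors. In progenitors of the second heart field gate, Bdnf was 4.35 UPM in Ctrl and 5.10 UPM in cKO (log2 ratio 0.23, -1.02 to 1.43), a difference not detectable at this depth. In those of the epithelial gate it was 6.55 and 25.6 UPM (log2 ratio 1.97, 1.02 to 2.93). Within cKO E9.5, somitic-gate progenitors had more Bdnf than other somitic-gate cells (22.4 against 7.30 UPM, log2 ratio 1.62, 1.30 to 1.94) and more Chrna6 (9.95 against 6.08 UPM, log2 ratio 0.71, 0.31 to 1.11). The Sst level was lower in those progenitors than in the other somitic-gate cells (11.1 against 17.1 UPM, log2 ratio -0.62, -0.94 to -0.31). The share of Sst carriers was not lower, at 28 of 547 progenitors (5.12%, 3.43 to 7.31) against 42 of 1065 other cells (3.94%, 2.86 to 5.29). The level thus rested on few cells with high counts, up to 48 UMIs in 1 of the other cells.

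Few progenitors carried more than 1 of the genes. In cKO E9.5, 289 of 1023 (28.3%, 25.5 to 31.1) carried at least 1 member, 53 (5.18%, 3.90 to 6.72) carried 2 or more and 2 carried all 3. Bdnf with Chrna6 was the most frequent pair, in 32 cells, followed by Bdnf with Sst in 16 and Sst with Chrna6 in 9, each count including the 2 cells with all 3. In Ctrl E9.5, 58 of 546 progenitors carried a member and 1 carried 2, Bdnf with Sst. At E8.5 no progenitor carried 2.

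**Figure D3:**
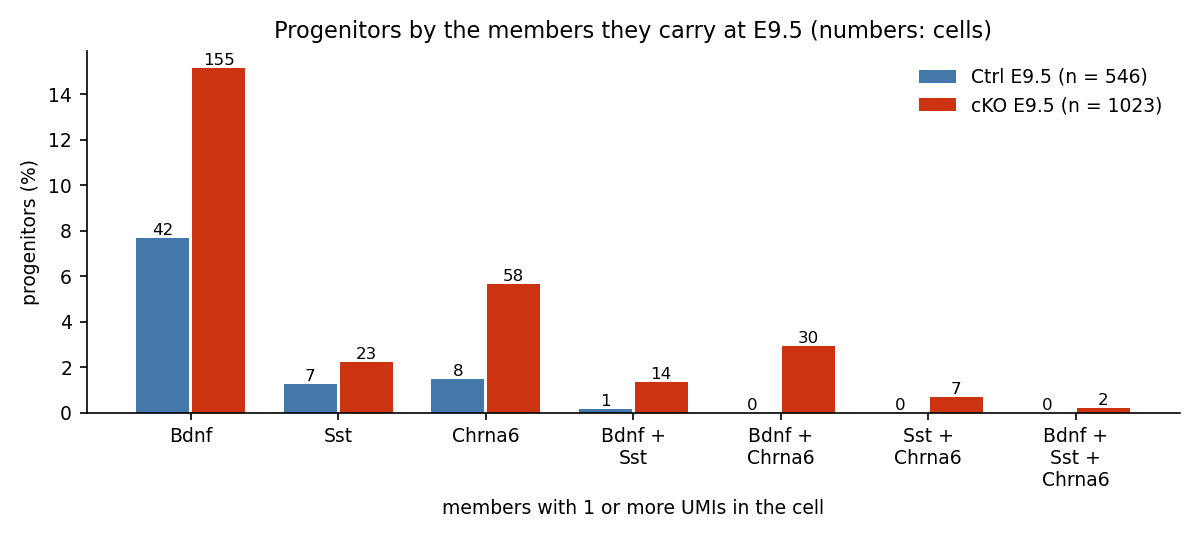
Share (%) of E9.5 progenitors by the exact set of members they carry, Ctrl in blue and cKO in red, with the number of cells above each bar. Single carriers make up most of the 289 cKO cells with a member, 155 of them with Bdnf alone.

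In cKO E9.5 progenitors, the share with one gene was higher among carriers of another in all 3 pairs, not always beyond counting error. Bdnf was in 33.0% (23.8 to 43.3) of Chrna6 carriers and 18.3% (15.8 to 20.9) of non-carriers, and in 34.8% (21.4 to 50.2) of Sst carriers and 18.9% (16.5 to 21.5) of non-carriers, where the intervals just met. Chrna6 was in 19.6% (9.36 to 33.9) of Sst carriers and 9.01% (7.29 to 11.0) of non-carriers, intervals that overlap. Median depth was close, 18530 UMIs in Chrna6 carriers and 17615 in non-carriers. At 10000 UMIs per cell the Bdnf share in Chrna6 carriers fell to 18.9% (9.44 to 32.0) against 12.8% (10.7 to 15.1) in non-carriers, and the intervals overlapped. That for Sst carriers was 26.5% (12.9 to 44.4) against 12.6% (10.6 to 14.9). The excess of shared cells was thus not resolved at equal depth. Pax8, a paired-box factor of otic, thyroid and kidney primordia that is itself higher in cKO E9.5 progenitors (14.1 UPM against 5.94 in Ctrl), marked a set with more of all 3. Bdnf was in 43.4% (35.9 to 51.1) of 173 Pax8 carriers and 14.8% (12.5 to 17.4) of the rest, Sst in 13.3% (8.62 to 19.3) and 2.71% (1.72 to 4.03), and Chrna6 in 23.1% (17.1 to 30.1) and 6.71% (5.12 to 8.60). Median depth was 17524 UMIs in Pax8 carriers and 17733.5 in the rest. In Ctrl E9.5 only 33 progenitors carried Pax8, of which 2 had Bdnf, 1 Sst and 1 Chrna6.

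For each member, the genes highest in carriers over non-carriers among cKO E9.5 progenitors were listed, of those with 50 or more UMIs in carriers. That filter left 6343 genes for Bdnf, 4100 for Chrna6 and 2244 for Sst, so the lists cannot be compared gene by gene. The 8 for Bdnf were Sst, Neurod1, Pax8, Cpa1, Myl4, Ntf3, Ppp1r3b and Pdgfrl. Neurod1, a factor of differentiating sensory neurons, was 29.8 UPM in Bdnf carriers and 8.18 UPM in the rest, but its 126 UMIs came from 11 of 201 carriers. Ntf3, the sister neurotrophin NT-3, was 21.3 and 8.31 UPM, from 66 carriers. The 8 for Chrna6 were Pcp4, Ppp1r3b, Pax8, Cpa1, Adamts9, Igfbp3, Ebf2 and Vcam1. Pcp4, a small calmodulin-binding protein, was 268 UPM in Chrna6 carriers and 58.4 UPM in the rest. The 8 for Sst were Pcp4, Tubb3, Map1b, Nefl, Hopx, Tgfbi, Lix1 and Asb4, with Pcp4 at 257 and 71.8 UPM. Of these, Tubb3, a neuronal beta-tubulin, was 79.8 and 23.9 UPM, but its 72 UMIs came from 8 of 46 Sst carriers. Thus Pcp4 led for Sst and Chrna6, Pax8, Cpa1 and Ppp1r3b were listed for both Bdnf and Chrna6, and Neurod1 and Tubb3 came from few cells. Pax8 is not on the Sst list, although Sst was in 13.3% of Pax8 carriers and 2.71% of the rest. Nefl, a neurofilament, was 62.1 UPM in Sst carriers and 28.6 UPM in the rest, and was found in 21 of the 46 carriers. Map1b, a microtubule protein of growing axons, was 291 and 127 UPM, and was found in 42 of them. It was thus plentiful in non-carriers too, and the share of non-carriers with either gene is not given here.

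Marker lists of other cell types were summed over the same carriers. The 8 neuroblast markers, all detected, stood at 54.1 UPM in cKO E9.5 progenitors and 38.6 UPM in Ctrl. They were 91.9 UPM in cKO Bdnf carriers against 43.5 UPM in non-carriers, 94.3 against 52.1 UPM for Sst and 55.5 against 53.9 UPM for Chrna6, whose carriers thus held no more of them. Of the 201 Bdnf carriers 11 passed the neuroblast gate, and they held 6.11% of the Bdnf UMIs. Of the 46 Sst carriers 3 passed it, and 37 had no UMI of the 8 markers, so the Sst value rested on few cells. Meox1 and Tcf15 summed to 400 UPM in Chrna6 carriers against 216 UPM in non-carriers, 308 against 215 UPM for Bdnf and 287 against 232 UPM for Sst. The share of cells with 3 UMIs that included both markers ran the other way, at 7.22% of Chrna6 carriers and 12.9% of non-carriers, 8.46% and 13.3% for Bdnf, and 2.17% (1 of 46) and 12.8% for Sst. In cKO E9.5 progenitors, the 3 endoderm markers (Foxa1, Foxa2 and Shh) had 0 UMIs in carriers of each gene. The upper ends were 0.873 UPM for Bdnf and 1.81 UPM for Chrna6, below the 3.63 and 3.17 UPM of their non-carriers. For Sst the upper end of 4.09 UPM lay above the 2.98 UPM of non-carriers, so the 46 carriers cannot show a lower level. In Ctrl E9.5, Bdnf carriers held 8 UMIs with all 3 markers detected. Carriers of Sst and of Chrna6 there, 8 cells each, held 0.

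Outside the progenitors, cells were taken by the first marker gate passed. Sst was highest in the neuroblast gate (3 or more UMIs from 2 or more of Neurod1, Neurog1, Neurog2, Neurod4, Elavl3, Elavl4, Nhlh1 and Nhlh2), the delaminating precursors of cranial sensory neurons. In Ctrl E9.5 that gate held 88 Sst UMIs in 6 of 44 cells (114 UPM, 91.4 to 140), 75.9% of the library's Sst UMIs, and 1 cell alone held 58. In cKO E9.5 it held 145 UMIs in 26 of 142 cells (55.1 UPM, 46.5 to 64.8), 18.5% of the library's. The log2 ratio was -1.05 (-1.44 to -0.65). Without the neuroblast cell with most Sst in each library the levels were 39.5 UPM (26.7 to 56.4) in Ctrl and 43.7 UPM (36.0 to 52.5) in cKO, so that the lower cKO level rested on 1 Ctrl cell.

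The other Sst of the cKO E9.5 library was in mesoderm gates where Ctrl had almost none. Somitic-gate cells outside the progenitors held 309 UMIs in 42 of 1065 cells (17.1 UPM, 15.2 to 19.1), up to 48 in a cell, and 0 UMIs in 433 Ctrl cells, at least 43.1-fold higher against a floor of 3 UMIs. Mesenchyme-gate cells held 103 UMIs in 37 of 3000 cells (2.16 UPM, 1.77 to 2.62) and 1 UMI in 2440 Ctrl cells (0.0256 UPM). Second heart field-gate cells held 16 UMIs in 6 of 165 cells and 1 UMI in 284 Ctrl cells. In these gates the intervals of the genotypes did not overlap, but 1 cell held 9 of the 16 cKO UMIs of the second heart field gate. Over all non-progenitor cells, 3.63% of the 14898 genes tested had a log2 ratio of at least 1. The share of genes with intervals that do not overlap, per gate, was not computed.

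Per cell, Sst carriers fell into cells with and without neuroblast transcripts. Of 22 Sst carriers in Ctrl E9.5, 9 passed the neuroblast gate, Arg1 notwithstanding, and held 82.8% of the Sst UMIs. Both cells with 10 or more Sst UMIs were among them. Of 170 carriers in cKO E9.5, 29 passed it and held 22.0% of the UMIs, while 119 had no UMI of any of the 8 markers. Of 25 cKO E9.5 cells with 10 or more Sst UMIs, 6 passed the gate. By assigned group those 25 were 10 somitic, 7 progenitor, 5 neuroblast and 3 mesenchyme cells, with median Arg1 counts of 1.5, 7, 0 and 1. In Ctrl E9.5 progenitors 3 of the 8 Sst carriers passed the neuroblast gate and held 53.3% of the 15 UMIs, against 3 of 46 carriers and 14.5% of the UMIs in cKO. All 8 neuroblast markers were detected in progenitor Sst carriers of both E9.5 libraries, at 733 UPM summed in Ctrl and 94.3 UPM in cKO. Of those carriers, 4 of 8 in Ctrl and 37 of 46 in cKO had no UMI of any of the 8 markers.

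**Figure D4:**
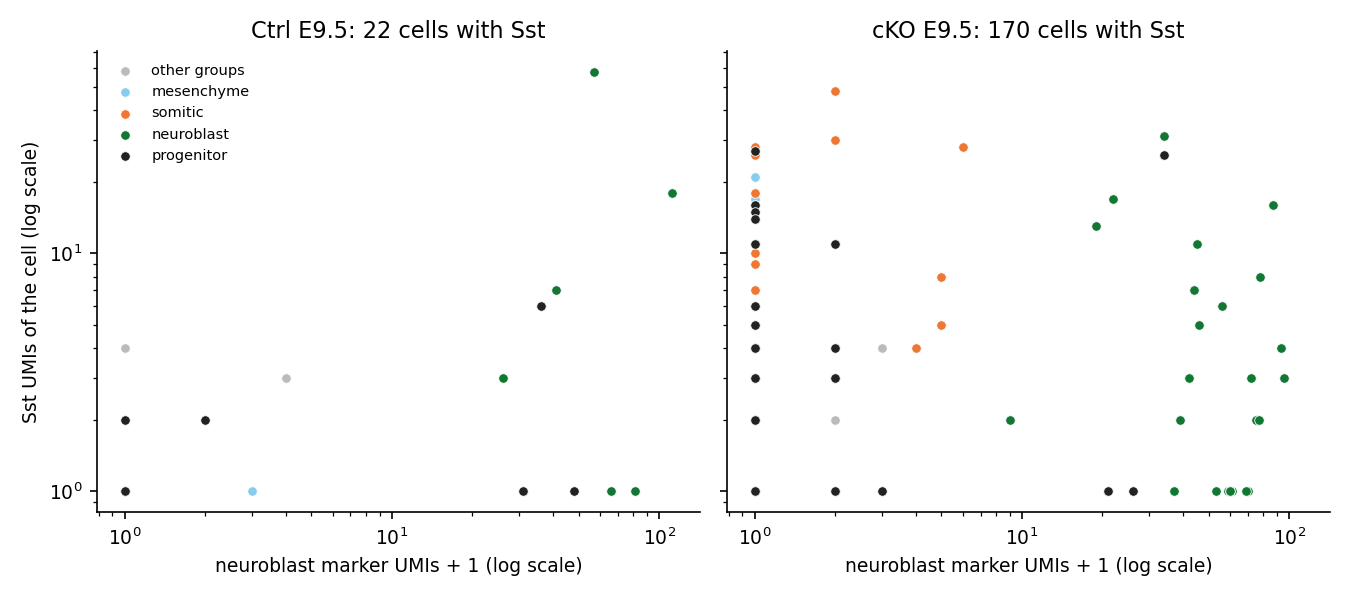
Each point is 1 Sst-carrying cell at E9.5, placed by its Sst UMIs and its summed UMIs of 8 neuroblast markers plus 1, both on log scales, and coloured by assigned group (points overlap). High counts in Ctrl lie with neuroblast markers, whereas cKO also has somitic, progenitor and mesenchyme cells with high counts and no marker UMI.

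Somitic-gate Sst carriers of cKO E9.5, compared with the 1023 somitic-gate cells without it, had Pcp4 at 299 and 31.6 UPM, Cdh6, a classical cadherin, at 77.1 and 15.3 UPM, Pgf, a placental growth factor, at 94.4 and 27.4 UPM, and Tshz2 at 270 and 92.5 UPM. Pcp4 led among the progenitors as well. Of these 42 carriers, 33 had no UMI of the 8 neuroblast markers.

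Bdnf at E9.5 was high in neuroblast-gate cells of both genotypes, 31.1 UPM (19.9 to 46.3) in Ctrl and 23.2 UPM (17.7 to 29.7) in cKO, with intervals that overlap. It was also similar in epithelial-gate cells other than otic ones, 11.9 and 12.7 UPM, and in mesenchyme-gate cells, 3.53 and 3.95 UPM. Otic epithelial cells held 9 UMIs in 18 Ctrl cells (interval 9.15 to 38.0 UPM) and 0 UMIs in 1 cKO cell, too few to compare. A difference in the direction of the progenitors was found in the branchiomeric muscle gate (Lhx2, Msc, Myf5 and Myod1), the precursors of jaw and facial muscle. There Bdnf was 6.74 UPM (48 UMIs, 4.97 to 8.94) in 331 Ctrl cells and 21.5 UPM (88 UMIs, 17.2 to 26.5) in 191 cKO cells, for which the log2 ratio was 1.67 (1.15 to 2.21). Somitic-gate cells held 2.78 UPM (1.72 to 4.24) of Bdnf in Ctrl against 7.30 UPM (6.11 to 8.66) in cKO. Their log2 ratio was 1.39 (0.72 to 2.13). Neural crest-gate cells held 31.2 UPM in 36 Ctrl cells and 0 UMIs in 7 cKO cells, too few to compare. Progenitors held 11.4% of all Bdnf UMIs in Ctrl E9.5 and 39.6% in cKO.

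Chrna6 in Ctrl E9.5 had its highest level in branchiomeric muscle-gate cells, at 16.2 UPM (115 UMIs in 86 of 331 cells, 13.3 to 19.4), followed by the somitic gate at 5.16 UPM, mesenchyme at 4.38 UPM and second heart field at 3.91 UPM, whose intervals overlap one another. Of the library's Chrna6 UMIs, the branchiomeric muscle gate held 30.0% and the far larger mesenchyme gate 44.6%. The posterior second heart field gate, with 2 UMIs in 12 cells, was too small to place. In cKO the branchiomeric muscle gate stood at 10.7 UPM (44 UMIs in 30 of 191 cells, 7.80 to 14.4), for which the log2 ratio was -0.59 (-1.12 to -0.08). Somitic-gate cells were at 6.08 UPM in cKO (log2 ratio 0.24, -0.30 to 0.80) and mesenchyme at 2.84 UPM (log2 ratio -0.63, -0.96 to -0.29). The median of -0.26 in non-progenitor cells lies inside the branchiomeric interval and above the mesenchyme interval. Neuroblast-gate cells held 0 Chrna6 UMIs in 44 Ctrl cells and 7 in 142 cKO cells. The Chrna6 level of cKO progenitors, 6.30 UPM, thus lay within counting error of the somitic gate in either library. Ctrl progenitors held 0.171 times the level of the other Ctrl cells.

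**Figure D5:**
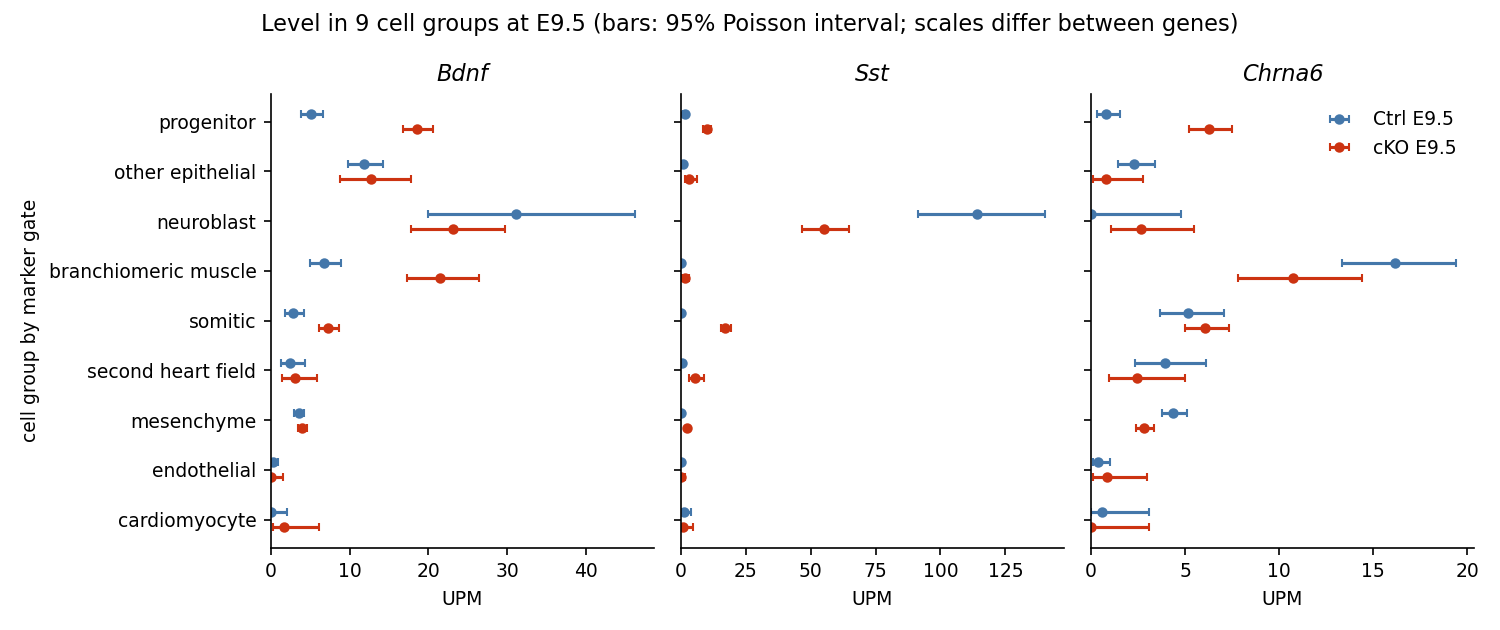
Level (UPM) of each gene at E9.5 in 9 groups set by marker gates, Ctrl in blue and cKO in red, with 95% Poisson intervals and a scale of its own per gene. Sst leads in neuroblasts of both libraries and is near 0 in Ctrl somitic cells, Bdnf differs in progenitors, branchiomeric muscle and somitic cells, and Chrna6 leads in branchiomeric muscle.

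Likeness of pattern was described by Pearson's r of log2(UPM + 10) over 42 pairs of cell group and library with 200000 or more UMIs each, among 14135 genes. Groups of 1 library share its depth and capture, and the gates themselves fix marker levels. The nearest 5 genes to Sst were Dcx (0.94), Neurod4 (0.93), Kcnmb2 (0.93), Sct (0.93) and Art1 (0.93). Neurod4 is itself a gate marker, and Dcx encodes a microtubule protein of migrating neurons. Those to Chrna6 were Lhx2 (0.78), Hhat (0.76), Msc (0.76), Pgf (0.75) and Tslp (0.74), with Lhx2 and Msc gate markers of branchiomeric muscle. Those to Bdnf were Rtn1 (0.77), Serinc2 (0.76), Cib2 (0.74), Sema6a (0.74) and Fxyd3 (0.74). Between the members r was 0.57 for Bdnf with Sst, -0.001 for Bdnf with Chrna6 and -0.08 for Sst with Chrna6.

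Most partners of these genes were sparse in progenitors, but some, among them Ntrk2 and Cpe, were not. Of 53 genes in 5 lists (neurotrophins and receptors, the somatostatin system, nicotinic subunits, neuropeptides, and propeptide processing with granule proteins), 21 reached 20 UMIs over both E9.5 progenitor sums. Without the members, 3 of the other 18 had a log2 ratio of at least 1 and 5 one of at most -1, beside backgrounds of 3.47% higher and 8.34% lower, with a median of -0.55 against -0.25 over all genes tested. With TMM factors 3 were higher and 3 lower, beside 652 and 639 of all 12307 genes. At E8.5 none of 14 passed the fold in either direction, beside backgrounds of 3.23% higher and 1.11% lower among 10943 genes.

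Of the neurotrophin list, 8 of 9 genes were tested. Ntf3 went from 2.87 to 11.1 UPM (log2 ratio 1.95, 1.40 to 2.56), nearly the same as Bdnf. Ntf5, encoding the TrkB ligand NT-4, went from 3.07 to 0.671 UPM (log2 ratio -2.19, -3.25 to -1.22). Ntrk2, the receptor shared by BDNF and NT-4, went from 18.6 to 9.24 UPM (log2 ratio -1.01, -1.31 to -0.71), and with TMM factors it was short of the fold at -0.75. Ntrk3, the NT-3 receptor TrkC, had 17 and 11 UMIs (log2 ratio -1.52, -2.76 to -0.34). Ngfr, the low-affinity receptor p75, was 6.04 and 7.38 UPM, and Sort1, a sorting receptor of proneurotrophins, 10.7 and 9.13 UPM, both between the fold limits, with the sign for Sort1 turning from -0.23 to 0.03 under TMM. Of the ligands, Bdnf and Ntf3 were thus higher in cKO progenitors and Ntf5 lower, and the receptor genes Ntrk2 and Ntrk3 were lower.

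Of the somatostatin list, 2 of 7 genes were tested. Cort, for the related peptide cortistatin, was 2.97 UPM in Ctrl and 2.01 UPM in cKO (log2 ratio -0.56, -1.28 to 0.17), and all 5 somatostatin receptor genes stayed under 20 UMIs. Of the 16 nicotinic subunits, Chrna6 and Chrna3 were tested, the latter at 11 and 14 UMIs. The 14 others, including the beta subunits with which alpha 6 assembles, stayed under 20 UMIs. Of 10 neuropeptide genes, 3 were tested: Cck, encoding cholecystokinin, went from 0.958 to 3.72 UPM (log2 ratio 1.95, 0.99 to 3.08), with 72 UMIs in 22 cells, while Gal (3.55 and 3.56 UPM) and Penk (3.45 and 4.08 UPM) differed by less than counting error. Of 11 genes of propeptide processing, 6 were tested and none of the 6 was past the fold upward. Cpe, the carboxypeptidase of secretory granules, was 33.2 and 21.5 UPM (log2 ratio -0.63, -0.84 to -0.42), Furin 10.8 and 7.33 UPM, and Pcsk6, a proprotein convertase, 8.91 and 3.72 UPM (log2 ratio -1.26, -1.73 to -0.80). Pcsk2, a convertase of neuroendocrine granules, had 11 and 10 UMIs, a log2 ratio of -1.03 that was -0.77 with TMM factors. Pcsk1, Chga, Chgb, Scg2 and Scg3, of dense-core granules, stayed under 20 UMIs. Chgb had 0 UMIs in Ctrl and 19 in cKO, from 8 cells, and Chga had 3 and 13 (log2 ratio 1.22, -0.64 to 3.67).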

How the data were processed

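Per the labels and the file headers, the authors deposited for each library the filtered Cell Ranger matrix of UMI counts per gene and cell barcode, mapped to mm10 (Cell Ranger 3.1.0 in the submitters' processing notes, 3.0.2 in the E8.5 matrix headers). The counts were not normalized. All deposited barcodes were kept, and no doublet caller was run.

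Counts were joined over the 27514 shared Ensembl identifiers. Cells with 3 or more Arg1 UMIs were called progenitors, and the others were given the first of 12 marker gates passed, in the order neuroblast, neural crest, endothelial, blood, epithelial, cardiomyocyte, neural, branchiomeric muscle, somitic, second heart field, posterior second heart field and mesenchyme. A gate asked for 3 summed UMIs of its list (20 for cardiomyocyte) and, down to neural, for 2 markers. UMIs were summed per library and group. With 1 library per group no test was made. A gene was called past the fold at a log2 ratio of at least 1 in size with 20 or more UMIs over both sums. Cells were thinned once to 10000 UMIs (seed 1). A count of 0 was set at a floor of 3 UMIs or 3 cells.

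Named genes were the members, their systems, the 8 genes highest in carriers over non-carriers, the 5 of most like pattern, and Arg1, Tbx1, Pax8, Isl1 and Aplnr. The members, gates and lists were chosen with earlier results of these data known. The leading genes of somitic Sst carriers were named after their values were seen. The values of some genes on these lists are not reported here, though the counts include them. Promoter windows came from RefSeq. Python 3.11.15, numpy 2.4.6, scipy 1.17.1, pandas 2.3.3, matplotlib 3.10.9 and, for TMM factors, R 4.3.3 with edgeR 4.0.16 were used, and the ratio intervals were tested on simulated data. Alternatives covered the Arg1 threshold, thinning, cell filters, high-UMI barcodes, the UMIs of a carrier, gates left out and scaling.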

Additional observations from a re-analysis of the deposited data

Results flagged for a closer look

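In 3 cell groups at E9.5 the cKO over Ctrl ratio ran opposite to that in progenitors, and the difference between groups was not tested, since each genotype had 1 library. Sst in neuroblast-gate cells had a log2 ratio of -1.05 (-1.44 to -0.65), against 2.79 in progenitors. Leaving out the cell with most Sst in each library gave 39.5 UPM (26.7 to 56.4) in Ctrl and 43.7 UPM (36.0 to 52.5) in cKO. Chrna6 in branchiomeric muscle-gate cells had a log2 ratio of -0.59 (-1.12 to -0.08), and in mesenchyme-gate cells one of -0.63 (-0.96 to -0.29), against 3.04 in progenitors. The median log2 ratio over genes in non-progenitor cells was -0.26.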

How the results depend on the processing

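No paired analysis was possible because each group had 1 library, and for the same reason no replicate could be left out. Under the alternatives listed under the processing, 24 of 27 values of the E9.5 log2 ratios, 15 of 16 at E8.5, 61 of 84 carrier shares, 5 of 7 shares of cells with 2 or more members and 22 of 30 group levels stayed within the main counting interval. The E9.5 ratios kept their sign, whereas at E8.5, where the intervals cover 0, the sign turned for Bdnf under 1 alternative and for Chrna6 under 2 (0.54 at 2 or more and 0.12 at 5 or more Arg1 UMIs). The E9.5 alternatives re-used UMIs of the contrast that selected the genes, so a kept sign there is not a separate result. The E9.5 progenitor log2 ratio ranged from 1.48 to 2.16 for Bdnf, 2.32 to 4.14 for Chrna6 and 0.27 to 3.76 for Sst. For Sst it was 3.72 at 2 or more Arg1 UMIs, 3.76 without progenitors passing an epithelial, neuroblast, neural or neural crest gate, and 0.27 less the ratio in other cells. Among those other cells, 1 Ctrl cell held 58 of the 101 Sst UMIs of Ctrl. For Bdnf at E8.5 the progenitor log2 ratio was 1.12, from -0.67, at 5 or more Arg1 UMIs.

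With gating and counting both on cells thinned to 10000 UMIs, the shares in Ctrl E8.5, cKO E8.5, Ctrl E9.5 and cKO E9.5 progenitors were 0.629, 0.546, 5.43 and 12.4% for Bdnf and 0, 0.546, 0.319 and 5.15% for Chrna6. That for Sst in cKO E8.5 was 0%, also at 5 or more Arg1 UMIs, and 2.25% of cKO E9.5 progenitors had 2 or more members. When a carrier needed 2 UMIs, the shares in that order were 0.641, 0.252, 1.28 and 6.94% for Bdnf and 0, 0.504, 0 and 2.05% for Chrna6. For Sst they were 0, 0.549 and 2.35% from cKO E8.5 on, and 0.782% of cKO E9.5 progenitors had 2 or more members. The Bdnf share was 16.7% in cKO E9.5 at 2 or more Arg1 UMIs and 5.71% in Ctrl E9.5 without the gates named above.

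With gates on thinned cells at E9.5, Sst in neuroblasts was 141 UPM in Ctrl and 69.0 UPM in cKO, Bdnf in somitic cells 1.17 and 12.5 UPM, Chrna6 in Ctrl somitic cells 3.52 UPM, and in cKO Bdnf and Chrna6 in branchiomeric muscle 27.6 and 7.14 UPM and Chrna6 in other epithelial cells 0 UPM. Without the neuroblast cell with most Sst, an alternative chosen after seeing the data, Sst was 39.5 UPM in Ctrl and 43.7 UPM in cKO. Genes past the fold at E9.5 numbered 186 higher and 492 lower at 100 UMIs, 765 and 1632 at 5 UMIs, and 652 and 639 with TMM factors, against 427 and 1026. At E8.5 they numbered 94 and 20 at 100 UMIs, and 790 and 458 at 5 UMIs, against 354 and 122. Of the genes of the same systems, 3 were lower with TMM factors, against 5. TMM for these counts was also chosen after seeing the data. The cause of these shifts was not tested. Sst values rest on few cells, and Ctrl progenitor values of Sst and Chrna6 on 15 and 8 UMIs.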
